A study of Mus musculus with 10 samples.

Results

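Expression of 10 genes of the Notch pathway and the Pax5 peaks in and near them were followed in mouse pro-B cells that differ in their Pax5 alleles. The 10 genes were taken as a fixed list from the 25579 genes of the deposited tables: the receptors Notch1, Notch2 and Notch3, the DNA-binding partner Rbpj, the target genes Heyl, Hes1, Nrarp and Ptcra, and the Deltex genes Dtx1 and Dtx4. The list was chosen with earlier results of these data known. All 10 were found, and 9 passed the filter on low values, which asked for at least 1 TPM in at least 1 library, while Ptcra did not.

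Notch receptors are transmembrane proteins that are cut when a ligand on a neighbouring cell binds, after which the released intracellular part enters the nucleus, joins the DNA-binding protein Rbpj and switches on target genes such as those of the Hes and Hey families. In early lymphoid development, Notch1 signaling directs progenitors to the T-cell lineage and away from the B-cell lineage. Pax5 is the transcription factor that commits progenitors to the B-cell lineage, and Notch1 is among the genes that it is known to repress.

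RNA-seq was done on pro-B cells sorted ex vivo from bone marrow of C57BL/6 mice, with 2 libraries for each of 4 genotypes. Pax5+/+ cells carried both wild-type alleles, Pax5+/- cells a wild-type and a null allele, and Pax5R31Q/- cells a null allele together with an edited allele coding for Pax5 with a glutamine in place of an arginine in the DNA-binding paired domain. The cells called Pax5-/- here carried Pax5(fl/fl) and Vav-Cre, a Cre that is active across the blood lineage and not in B cells alone, and the labels give them as progenitor cells while the other 3 genotypes are given as pro-B cells. ChIP-seq used an antibody against the paired domain on pro-B cells grown in vitro for a short time, with 1 library from cells labelled Rag2(-/-), which have wild-type Pax5 and lack the Rag2 recombinase, and 1 from Pax5R31Q/- cells. For the latter library the labels disagree, since the description names Rag2(R31Q/-) and the genotype field Pax5(R31Q/-), and the genotype field was followed. The R31Q allele was made by editing zygotes, whose descendants were backcrossed. The ages of the mice used for sequencing are not given in the sources used here, and no label says whether the libraries of a genotype came from separate mice, so that p-values measure the spread between these libraries, which may be technical.

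The depth on genes, worked out from the spacing of low TPM, was 30317399 to 34940393 reads in 7 libraries and 21900054 in the first Pax5-/- library. Pax5 itself was at 418 and 444 TPM in Pax5+/+, 272 and 287 in Pax5+/-, 306 and 293 in Pax5R31Q/-, and 1242 and 1409 in Pax5-/- cells. These values sum over the whole gene and so do not check a deletion of part of it. The summed TPM of 10 pro-B markers was 7749 to 8480 in Pax5-/- and 14108 to 17541 elsewhere. Of the 10, 8 lay below the Pax5+/+ libraries there, Il7r overlapped them, and Dntt lay above them, at 3566 and 3072 TPM against 2277 and 2318 TPM. The summed TPM of 5 multipotent progenitor markers was 544 to 613 in Pax5-/- and 38.4 to 82.9 elsewhere. Of the 5, 4 lay above the Pax5+/+ libraries in Pax5-/- cells, and Meis1 lay below, at 8.72 and 7.34 TPM against 16.1 and 19.5 TPM. That of 10 T-cell markers was 323 to 325 in Pax5-/- and 94.8 to 138 elsewhere, with 5 above Pax5+/+, 1 below and 4 overlapping in Pax5-/- cells. Most of the T-cell sum was Lck (271 to 273 TPM in Pax5-/-), while the defining markers Cd3e, Cd3d and Cd3g were each under 1 TPM in every library. The summed TPM of 7 markers of plasmacytoid dendritic cells was 634 and 1183 in Pax5-/- and 360 to 869 elsewhere, and Siglech, a defining marker of them, was at 54.4 and 158 TPM in Pax5-/- and at 0.694 to 11.7 TPM elsewhere. Of the 7, 5 lay above the Pax5+/+ libraries in Pax5-/- cells and Klk1 overlapped them. Spib lay below them, at 159 and 266 TPM against 635 and 641 TPM. The summed TPM of 6 myeloid markers was 939 and 166 in Pax5-/- and 216 to 734 elsewhere, that of 6 NK-cell markers 51.3 to 71.5 against 14.1 to 25.1, that of 4 erythroid markers 13.02 to 34.4 against 71.2 to 128, and that of 3 pre-B markers 27.1 to 51.6 against 26.8 to 44.5. The Pax5R31Q/- libraries differed from Pax5+/+ in some of these sums too, with 419 and 360 against 869 and 849 for the plasmacytoid dendritic markers, 505 and 470 against 300 and 216 for the myeloid and 59.2 and 65.7 against 38.4 and 40.1 for the multipotent progenitor markers. Of the pre-B markers, Il2ra was higher in Pax5-/- than in Pax5+/+ cells, as given below, while Ms4a1 was at 14.04 and 25.8 TPM in Pax5+/+, 1.18 and 4.83 TPM in Pax5R31Q/-, and 0.234 and 0.190 TPM in Pax5-/- cells. Cd2 was at 4.77 and 2.61 TPM in Pax5+/+, 1.38 and 0.899 TPM in Pax5R31Q/-, and 0.523 and 1.05 TPM in Pax5-/- cells. The part of these other cells in the Pax5R31Q/- and Pax5-/- values below was not tested, and in sorted bulk samples a change in the cells that hold a transcript cannot be told apart from a change per cell.

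limma was fitted to log2(TPM + 1) of 13436 genes, and p-values were adjusted over all of them. A gene is said to have risen or fallen where its adjusted p was under 0.05, and to have passed the study's call rule where it also changed more than 3-fold on this scale with a mean above 5 TPM in either genotype. The study set these thresholds on results of DESeq2, a test of counts, which was not used here, so that the p-values and folds are those of limma. With 2 libraries against 2, an exact permutation test of a single gene cannot go below p = 0.333. Libraries of 2 genotypes that do not overlap were common, with 14.9% of tested genes lower and 21.1% higher without overlap in Pax5+/- against Pax5+/+, 25% and 34.6% in Pax5R31Q/- against Pax5+/+, and 36.4% and 27.2% in Pax5-/- against Pax5+/+ cells. The shares were 26.0% and 29.7% in Pax5R31Q/- against Pax5+/- and 29.4% and 43.0% in Pax5R31Q/- against Pax5-/- cells. Peaks are given as positions alone, without height, and all coordinates are those of GRCm38. A wild-type peak is called common where a peak of the Pax5R31Q/- list overlaps it by at least 1 bp and unique otherwise. With 1 ChIP library per genotype there is no replicate check and no test of a peak. The 2 ChIP libraries differ in the R31Q change, in the number of Pax5 alleles and, by the genotype field, in Rag2. Which of these a common or unique peak goes with cannot be told apart.

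Against Pax5+/+, none of the 9 tested genes passed the test in Pax5+/- cells, 2 did in Pax5R31Q/- cells and 7 in Pax5-/- cells, where 0.0223%, 4.17% and 35.9% of all tested genes did. Heyl and Dtx4 were the 2 genes that changed in Pax5R31Q/- cells, in opposite directions, and both changed further in Pax5-/- cells. The study had already named these 2 genes as changed in Pax5R31Q/- cells. Notch1 and Notch2 rose in Pax5-/- but not in Pax5R31Q/- cells, where their means were 1.18 and 0.988 times those of Pax5+/+.

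**Figure D1:**
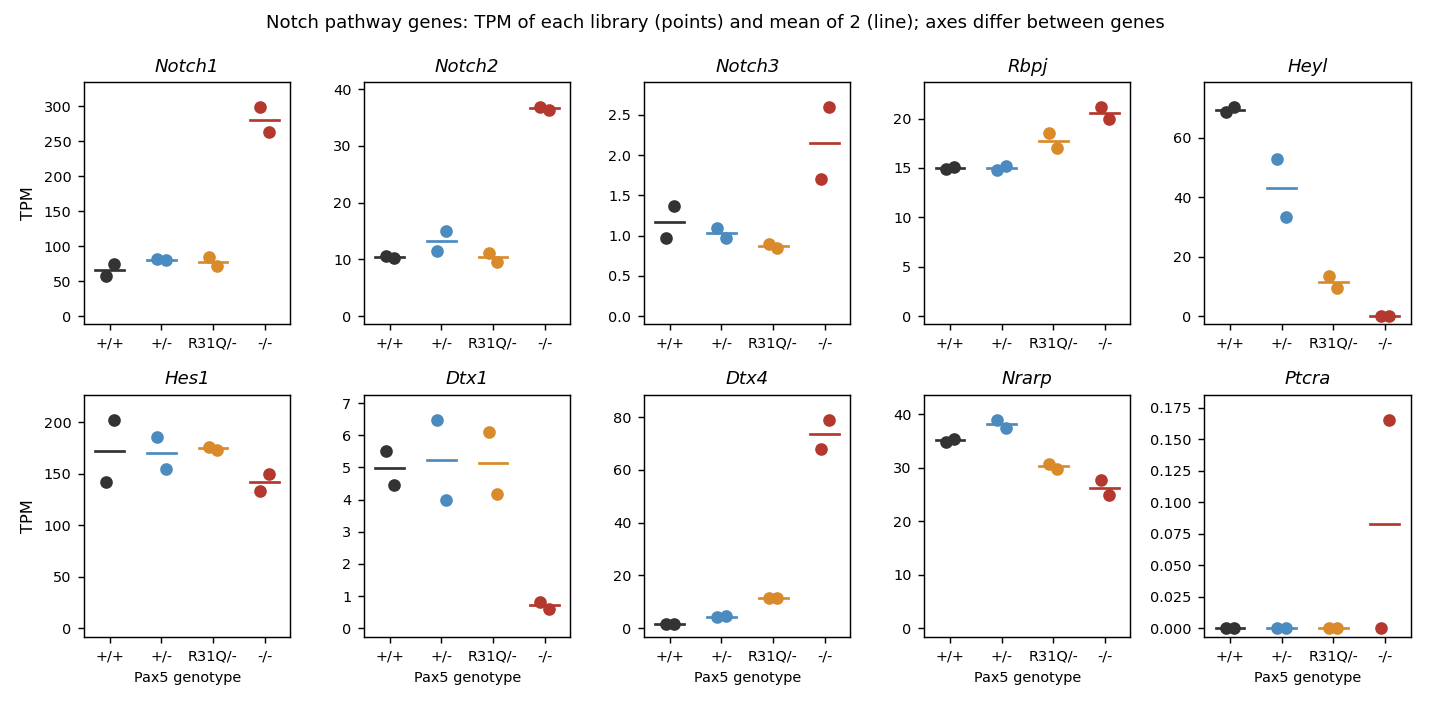
TPM of the 10 Notch pathway genes (vertical axes, linear, different for each gene) in the 4 Pax5 genotypes (horizontal axes); each point is 1 library and each line the mean of 2. Heyl steps down and Dtx4 steps up from Pax5+/+ to Pax5-/- without overlap between neighbouring genotypes, while Notch1 and Notch2 stand apart in the Pax5-/- libraries.

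Notch1 (chr2:26457902-26503822, minus strand), the receptor that drives T-cell commitment, was at 56.8 and 74.7 TPM in Pax5+/+, 81.7 and 79.5 TPM in Pax5+/-, 83.8 and 71.9 TPM in Pax5R31Q/-, and 298 and 263 TPM in Pax5-/- cells. The Pax5-/- libraries lay far above all others, and the other 3 genotypes overlapped or lay close together. In Pax5-/- cells its mean TPM was 4.27 times that of Pax5+/+, a log2 fold change of 2.09 ± 0.16 (SE, n = 2 per genotype; limma adjusted p = 7.19e-05). In Pax5R31Q/- cells the log2 fold change against Pax5+/+ was 0.25, with a 95% confidence interval of -0.11 to 0.61 (limma adjusted p = 0.413). Directly compared, Notch1 was 3.61 times higher in Pax5-/- than in Pax5R31Q/- cells (log2 fold change of Pax5R31Q/- against Pax5-/- of -1.84, limma adjusted p = 0.000183). Notch1 overlaps 0610009E02Rik on the other strand, and how the reads were counted by strand is not given in the sources used here.

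The start site of Notch1 lay under a common Pax5 peak of 783 bp (chr2:26503443-26504225), which met a peak of 1504 bp in the Pax5R31Q/- list. The other 2 peaks in the gene or within 10 kb were common as well, and a unique peak lay just outside this window, 10446 bp upstream. The start-site peak held GTGGGAA, the letters of the core Rbpj site, which are shown here because peaks at 8 of the 10 genes hold them. Over all tested genes, 15.6% had a wild-type peak with these letters in the gene or within 10 kb. The genes differ in how many peaks they have, with 0 to 5 wild-type peaks in the list and a median of 2 over tested genes. The capitals mark these letters, and the site lies on an exon of the long non-coding gene Gm35978.
Notch1 (chr2:26504193-26504219, plus strand): tacgggtcttGTGGGAAaggaaagctg

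Notch2 (chr3:98013538-98150367, plus strand), another receptor, with its own role in later B cells, was at 10.6 and 10.3 TPM in Pax5+/+, 11.4 and 15.05 TPM in Pax5+/-, 11.2 and 9.54 TPM in Pax5R31Q/-, and 36.8 and 36.4 TPM in Pax5-/- cells. The Pax5-/- libraries lay far above all others, and the Pax5+/- libraries lay slightly above those of Pax5+/+ and Pax5R31Q/-, a difference from Pax5+/+ that did not pass the test (limma adjusted p = 0.976). The Pax5-/- mean was 3.49 times the Pax5+/+ mean (log2 fold change 1.71 ± 0.17, limma adjusted p = 0.000252). The log2 fold change in Pax5R31Q/- cells was -0.02, with an interval of -0.41 to 0.37. Of its 4 wild-type peaks, that at the start site was common, and 3 peaks of 224 to 258 bp in introns were unique.

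Notch3 (chr17:32120820-32166896, minus strand) was the least expressed of the 3 listed receptors per length, at 0.964 and 1.37 TPM in Pax5+/+, 1.09 and 0.971 TPM in Pax5+/-, 0.900 and 0.839 TPM in Pax5R31Q/-, and 1.71 and 2.59 TPM in Pax5-/- cells. The Pax5-/- libraries lay above all others. Their difference from Pax5+/+ did not pass the test (log2 fold change 0.53, limma adjusted p = 0.0785), although it did without the first Pax5-/- library (limma adjusted p = 0.0228), after median-ratio scaling (limma adjusted p = 0.0399) and in a limma-voom fit of the reads (adjusted p = 0.0127). Against Pax5-/-, Notch3 was lower in Pax5R31Q/- cells (log2 fold change -0.74, limma adjusted p = 0.0278), a call that was lost without the first (limma adjusted p = 0.112) or the second Pax5R31Q/- library (limma adjusted p = 0.125). Its 1 wild-type peak, of 656 bp over coding exons, was common and held the Rbpj letters, and the Pax5R31Q/- list had a further peak of its own 6496 bp downstream of the gene. Notch3 overlaps Gm38585 and Gm41568 on the other strand.
Notch3 (chr17:32164377-32164403, minus strand): gtggggggccGTGGGAActgtagatag

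Rbpj (chr5:53555779-53657445, plus strand), through which the receptor's intracellular part meets DNA, was at 14.9 and 15.1 TPM in Pax5+/+, 14.8 and 15.2 TPM in Pax5+/-, 18.5 and 17.0 TPM in Pax5R31Q/-, and 21.1 and 19.9 TPM in Pax5-/- cells. The Pax5+/+ and Pax5+/- libraries overlapped, and the other 2 genotypes lay above them without overlap. The rise in Pax5-/- cells was 1.37-fold (log2 fold change 0.43 ± 0.13, limma adjusted p = 0.035). It did not pass without the first Pax5+/+ library (limma adjusted p = 0.0858), the second Pax5+/+ library (limma adjusted p = 0.0795) or the first Pax5-/- library (limma adjusted p = 0.0548). In Pax5R31Q/- cells the log2 fold change of 0.23 had an interval of -0.07 to 0.53. A common peak of 448 bp lay 1014 bp upstream of the nearest of its start sites, and its partner in the Pax5R31Q/- list was 1870 bp wide and reached over the start site. The Rbpj letters, capitalised as before, stood in this peak too.
Rbpj (chr5:53589313-53589339, minus strand): aacacgggccGTGGGAAatttcctaag

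Heyl (chr4:123233556-123249870, plus strand), a transcriptional repressor of the Hey family that Notch signaling activates in many tissues, showed the largest fall of the 10 genes. It was at 68.7 and 70.2 TPM in Pax5+/+, 52.8 and 33.3 TPM in Pax5+/-, 13.5 and 9.27 TPM in Pax5R31Q/-, and 0 and 0.0312 TPM in Pax5-/- cells. The 4 genotypes followed each other downward without overlap, although the Pax5+/- libraries lay far apart. In Pax5R31Q/- cells the mean TPM of Pax5+/+ was 6.09 times higher (log2 fold change -2.53 ± 0.25, limma adjusted p = 0.00254). In Pax5-/- cells 2 reads were found in all, 0 in the first and 2 in the second library, against 8283 reads in the Pax5+/+ libraries, so that the ratio, scaled to TPM, was 3800 with an exact 95% counting interval of 1052 to 31386. That interval covers counting error only. The fitted log2 fold change of -6.12 ± 0.25 (limma adjusted p = 6.82e-06) depends on the pseudocount at this level and is no bound. The difference in Pax5+/- cells did not pass the test (log2 fold change -0.71 with an interval of -1.29 to -0.13, limma adjusted p = 0.665).

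The Pax5R31Q/- cells differed from the Pax5+/- cells in Heyl as well (log2 fold change -1.81, limma adjusted p = 0.0311). Each of the 4 libraries was needed for this call, while the log2 fold change stayed between -2.14 and -1.49: the limma adjusted p was 0.241 without the first and 0.0838 without the second Pax5+/- library, and 0.175 without the first and 0.277 without the second Pax5R31Q/- library. From the Pax5-/- cells the difference was in the other direction, with 1426 reads in the Pax5R31Q/- libraries against 2, a ratio of 625 with an exact 95% counting interval of 173 to 5169 (limma adjusted p = 8.12e-05).

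Heyl had 4 wild-type Pax5 peaks in the gene or within 10 kb. The peaks 5.11 kb upstream of the start site and over coding exons 6.48 kb downstream of it were common. The peaks at the start site (chr4:123233511-123233844) and in an intron 4.58 kb downstream were unique. Among the 5 genes of the list with a wild-type peak whose midpoint lay within 1 kb of a start site, Heyl was the only one with no common peak there, which held for 325 of 8488 tested genes with such a peak (3.83%). The upstream and the intronic peak are printed because the first was met in the Pax5R31Q/- list and the second was not. Capitals mark the 15 bases that best matched the paired domain consensus of 15 letters, with 9 of its 13 fixed letters met in the upstream and 8 in the intronic peak. The median best match was also 9 letters over all common and 8 over all unique wild-type peaks.
Heyl upstream, common, central 300 bases (chr4:123228293-123228592, plus strand): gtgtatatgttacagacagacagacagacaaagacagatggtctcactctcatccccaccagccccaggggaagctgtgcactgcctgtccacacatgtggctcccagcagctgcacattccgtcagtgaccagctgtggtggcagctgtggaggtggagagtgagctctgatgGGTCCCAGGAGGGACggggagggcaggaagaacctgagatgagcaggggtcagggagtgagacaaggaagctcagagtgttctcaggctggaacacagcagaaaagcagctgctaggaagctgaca
Heyl intron, unique, whole peak (chr4:123237990-123238272, plus strand): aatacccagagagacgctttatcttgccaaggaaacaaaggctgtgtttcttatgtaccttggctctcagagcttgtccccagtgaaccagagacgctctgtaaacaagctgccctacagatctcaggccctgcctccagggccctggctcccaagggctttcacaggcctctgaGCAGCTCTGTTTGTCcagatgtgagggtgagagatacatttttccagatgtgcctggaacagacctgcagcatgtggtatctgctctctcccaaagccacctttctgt

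Hes1 (chr16:30065357-30067796, plus strand), the most widely used target of Notch signaling and a repressor as well, was at 142 and 202 TPM in Pax5+/+, 185 and 154 TPM in Pax5+/-, 176 and 173 TPM in Pax5R31Q/-, and 133 and 150 TPM in Pax5-/- cells. The Pax5+/+ libraries spanned nearly the whole range. The log2 fold change against Pax5+/+ was 0.04 in Pax5R31Q/- (interval -0.37 to 0.46) and -0.26 in Pax5-/- cells (interval -0.68 to 0.15, limma adjusted p = 0.282). Without the first Pax5+/+ library, the latter was -0.51 and passed the test (limma adjusted p = 0.0484). Hes1 had the most peaks of the list, with 5 wild-type peaks of which 4 were common, among them that at the start site, which held the Rbpj letters.

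Nrarp (chr2:25180758-25183339, plus strand), a small protein that dampens Notch signaling and is itself a target of it, was at 34.9 and 35.5 TPM in Pax5+/+, 39.0 and 37.4 TPM in Pax5+/-, 30.7 and 29.8 TPM in Pax5R31Q/-, and 27.7 and 24.9 TPM in Pax5-/- cells. No 2 genotypes overlapped, but the steps were small. The fall in Pax5-/- cells was 1.337-fold (log2 fold change -0.41 ± 0.12, limma adjusted p = 0.0295). It was lost without the first (limma adjusted p = 0.0636) or the second Pax5+/+ library (limma adjusted p = 0.0767), in a limma-voom fit of the reads (adjusted p = 0.0785) and after median-ratio scaling (limma adjusted p = 0.109). The difference between Pax5R31Q/- and Pax5+/+ cells was -0.21 on the log2 scale, with an interval of -0.48 to 0.06.

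Nrarp was also the gene without a wild-type peak within 10 kb, whereas the Pax5R31Q/- list had 2 peaks of its own with midpoints within 1 kb of the start site, of 773 bp over the start site (chr2:25180563-25181335) and of 541 bp (chr2:25181435-25181975). A peak found in the Pax5R31Q/- list alone within 1 kb of a start site was seen at 1167 of 12893 tested genes (9.05%). Another Pax5R31Q/- peak, 9955 bp downstream, had a wild-type partner that lay just outside the window, at 10025 bp. The promoter is shown because the wider peak covers most of it. It is the RefSeq sequence of GRCm38.p6, and capitals mark the best match to the consensus, with 9 of 13 letters. The median over all common wild-type peaks was 9 letters as well.
Nrarp promoter, 250 bases before the start (chr2:25180508-25180757, plus strand): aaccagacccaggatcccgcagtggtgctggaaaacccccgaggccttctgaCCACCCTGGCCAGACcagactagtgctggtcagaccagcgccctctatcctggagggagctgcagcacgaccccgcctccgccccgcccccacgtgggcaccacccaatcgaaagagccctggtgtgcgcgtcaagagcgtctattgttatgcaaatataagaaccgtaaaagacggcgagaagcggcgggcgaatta

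Ptcra (chr17:46755663-46763712, minus strand), the chain that pairs with the T-cell receptor beta chain in developing T cells and a Notch target there, was at 0 TPM in 7 libraries. In the second Pax5-/- library 3 reads were found, 0.165 TPM. A count of 0 allows up to 3 reads, which is 0.168 to 0.233 TPM in the 7 libraries, so no difference was detectable at this depth. Its 1 wild-type peak was common, and the Pax5R31Q/- list had 1 further peak. The common peak held the Rbpj letters.
Ptcra (chr17:46751897-46751923, minus strand): ggcggggcctGTGGGAAgggtctgggc

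Dtx1 (chr5:120680203-120711867, minus strand) and Dtx4 (chr19:12466329-12502179, minus strand) code for Deltex proteins, ubiquitin ligases that bind the intracellular part of Notch, and Dtx1 is a known Notch target in lymphocytes. The 2 genes moved in opposite directions in Pax5-/- cells. Dtx1 was at 5.51 and 4.45 TPM in Pax5+/+, 6.48 and 3.99 TPM in Pax5+/-, 6.09 and 4.17 TPM in Pax5R31Q/-, and 0.832 and 0.591 TPM in Pax5-/- cells. The first 3 genotypes overlapped, and the Pax5-/- libraries lay below all of them. The Pax5+/+ mean was 7.001 times that of Pax5-/- (log2 fold change -1.80 ± 0.26, limma adjusted p = 0.0015), and it did not pass the study's call rule because both means were at or below 5 TPM. In Pax5R31Q/- cells Dtx1 was 7.21 times higher than in Pax5-/- cells (log2 fold change 1.83, limma adjusted p = 0.00181), and against Pax5+/+ it differed by 0.02 (interval -0.58 to 0.63). All 3 wild-type peaks of Dtx1 were common. The intronic peak 25.8 kb into the gene is printed because its best match to the consensus met 11 of 13 letters, which 4.31% of all common wild-type peaks did. Capitals mark that match in the first line and the Rbpj letters of the same peak in the second.
Dtx1 intron, common, central 300 bases (chr5:120685755-120686054, minus strand): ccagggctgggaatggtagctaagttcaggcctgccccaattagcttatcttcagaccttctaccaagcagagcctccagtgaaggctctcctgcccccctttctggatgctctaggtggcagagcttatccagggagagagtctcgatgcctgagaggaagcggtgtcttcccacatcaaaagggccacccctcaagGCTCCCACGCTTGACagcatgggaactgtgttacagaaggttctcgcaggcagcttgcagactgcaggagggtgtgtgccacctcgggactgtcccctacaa
Dtx1 (chr5:120685869-120685895, plus strand): cccttttgatGTGGGAAgacaccgctt

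Dtx4 showed the largest rise of the 10 genes. It was at 1.58 and 1.59 TPM in Pax5+/+, 4.21 and 4.49 TPM in Pax5+/-, 11.6 and 11.6 TPM in Pax5R31Q/-, and 67.9 and 79.0 TPM in Pax5-/- cells. The libraries of each genotype lay close together, and no 2 genotypes overlapped. The mean TPM was 2.74 times that of Pax5+/+ in Pax5+/-, 7.30 times in Pax5R31Q/- and 46.3 times in Pax5-/- cells. The rise passed the test in Pax5R31Q/- (log2 fold change 2.28 ± 0.15, limma adjusted p = 0.000515) and in Pax5-/- cells (4.84 ± 0.15, limma adjusted p = 1.68e-06). In Pax5+/- cells the log2 fold change was 1.05 ± 0.15, with an interval of 0.70 to 1.39, and the limma adjusted p was 0.0926.

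Between Pax5R31Q/- and Pax5+/- cells, Dtx4 differed by 1.23 ± 0.15 (limma adjusted p = 0.0212), below the 3-fold limit of the call rule. This call rested on all 4 libraries, while the log2 fold change stayed between 1.197 and 1.271, with a limma adjusted p of 0.241 without the first and 0.188 without the second Pax5+/- library, and of 0.230 without the first and 0.240 without the second Pax5R31Q/- library. Against Pax5-/-, Dtx4 was lower in Pax5R31Q/- cells (log2 fold change -2.56, limma adjusted p = 4.55e-05), with a mean TPM 6.34 times lower. Its peaks at the start site, of 663 bp and 309 bp, were both common, the former with GCGTGAC, the last 7 letters of the consensus. A peak in an intron 24.95 kb into the gene and a fully repeat-masked peak 3.78 kb upstream were unique. The intronic peak held the Rbpj letters at its edge.
Dtx4 (chr19:12476904-12476930, minus strand): ggtccaaggaGTGGGAAagtccaccag

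**Figure D2:**
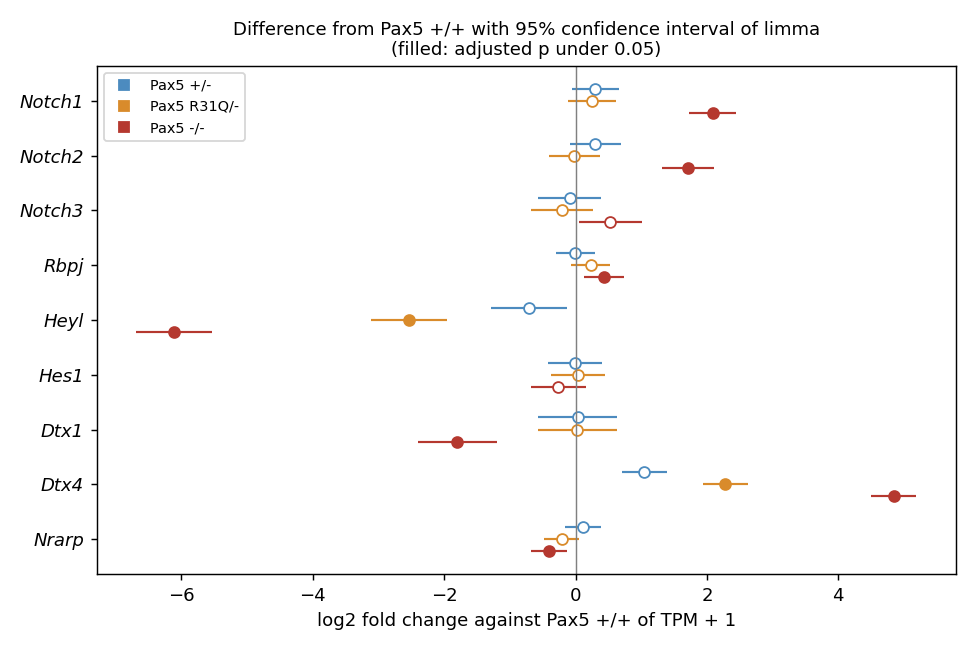
Log2 fold change of TPM + 1 (horizontal axis) of the 9 tested Notch pathway genes (vertical axis) in Pax5+/-, Pax5R31Q/- and Pax5-/- cells against Pax5+/+; bars are the 95% confidence intervals of limma and filled points have an adjusted p under 0.05. Heyl and Dtx4 are the filled points of Pax5R31Q/-, at -2.53 and 2.28, and no point of Pax5+/- is filled.

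Counted over the list, 1 of 9 tested genes fell (Heyl) and 1 rose (Dtx4) in Pax5R31Q/- against Pax5+/+ cells, where 2.55% of all tested genes fell and 1.62% rose. Both passed the call rule, which 0.558% of all genes passed downward and 0.298% upward. The study had already named both as changed in these cells, and the list was chosen with earlier results known. These counts beside the shares of all genes are therefore no test of the pathway. In Pax5-/- against Pax5+/+ cells, 3 of 9 fell (Heyl, Dtx1 and Nrarp) and 4 rose (Notch1, Notch2, Rbpj and Dtx4), beside 19.7% and 16.2% of all genes. There, Heyl passed the call rule downward (3.82% of all genes), and Notch1, Notch2 and Dtx4 passed it upward (3.07%). None of the 9 passed in Pax5+/- against Pax5+/+ cells in the limma fit with a trend, where 3 of 13436 genes fell (0.0223%) and none rose. At an unadjusted limma p under 0.05, 2 of the 9 differed in that comparison, Heyl and Dtx4, beside 6.06% of all genes, and Dtx4 passed the adjusted threshold with eBayes without a trend (limma adjusted p = 0.0382) and in a limma-voom fit of the reads (adjusted p = 0.038). In Pax5R31Q/- against Pax5+/- cells 1 fell (Heyl; 0.35% of all genes) and 1 rose (Dtx4; 0.268%), and the call rule, which 0.119% of all genes passed downward and 0.0893% upward, took Heyl alone. In Pax5R31Q/- against Pax5-/- cells, 4 of 9 were lower (Notch1, Notch2, Notch3 and Dtx4; 14.7% of all genes) and 2 were higher (Heyl and Dtx1; 19.9%). All of these but Notch3 passed the call rule there, beside 2.43% of all genes downward and 3.07% upward. The comparisons share libraries, so their counts are not independent of each other.

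The median log2 fold change of the 9 genes was 0.02 in Pax5R31Q/- against Pax5+/+ cells (0.04 over all genes) and 0.43 in Pax5-/- against Pax5+/+ cells (-0.11 over all genes). In Pax5R31Q/- against Pax5-/- cells it was -0.20, beside 0.13 over all genes, and median-ratio scaling moved the latter by -0.12. The 9 genes include rises and falls of several log2 units, which these medians do not show.

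A wider list of 72 other genes of the pathway was read in the same fit, of which 60 passed the filter. In Pax5R31Q/- against Pax5+/+ cells 3 of 60 fell and 2 rose, beside 2.55% and 1.62% of all genes, and no gene passed the call rule. They are named here after their values were seen: Psen2, of the protease that releases the intracellular part (log2 fold change -1.10), Maml1, a coactivator that binds Rbpj on DNA (-0.68), and Rbpjl, a relative of Rbpj (-1.30), fell, and Aph1b (1.43) and Aph1c (0.87), subunits of the same protease, rose. Aph1b and Aph1c are near-identical copies whose reads the counting of uniquely mapping reads can split, and their values are uncertain. In Pax5-/- against Pax5+/+ cells 12 of 60 fell and 12 rose, beside 19.7% and 16.2% of all genes.

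In Pax5-/- cells Neurl3, of a family of ubiquitin ligases, and Il2ra, a receptor chain for interleukin 2 and a marker of pre-B and early T cells, passed the call rule. Neurl3 had a mean of 6.11 TPM in Pax5-/- and 26.3 TPM in Pax5+/+ cells (log2 fold change -1.96 ± 0.23, limma adjusted p = 0.000558). Il2ra was at 13.02 and 6.55 TPM in Pax5+/+, 15.4 and 13.9 TPM in Pax5+/-, 41.9 and 21.1 TPM in Pax5R31Q/-, and 26.4 and 50.4 TPM in Pax5-/- cells. Its Pax5R31Q/- and Pax5-/- libraries overlapped, and both lay above Pax5+/+. The difference from Pax5+/+ passed in Pax5-/- cells (log2 fold change 1.87 ± 0.43, limma adjusted p = 0.0125) and did not in Pax5R31Q/- cells (1.58 ± 0.43, limma adjusted p = 0.0964). Ms4a1 and Cd2, the other pre-B markers, were lower in both genotypes, with the values given above. The study describes Cd2 as directly activated by Pax5 and its protein as absent from Pax5R31Q/- pre-B cells. The level of Cd2 therefore does not measure how many pre-B cells the mutant samples held. None of the 60 passed in Pax5+/- against Pax5+/+ or in Pax5R31Q/- against Pax5+/- cells with limma. In Pax5R31Q/- against Pax5-/- cells 10 of 60 were lower and 9 higher, beside 14.7% and 19.9% of all genes, and Aph1b passed the call rule (log2 fold change 2.23, limma adjusted p = 0.000243). The median log2 fold change of the 60 genes was -0.06 in Pax5R31Q/- and -0.03 in Pax5-/- against Pax5+/+ cells.

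**Figure D3:**
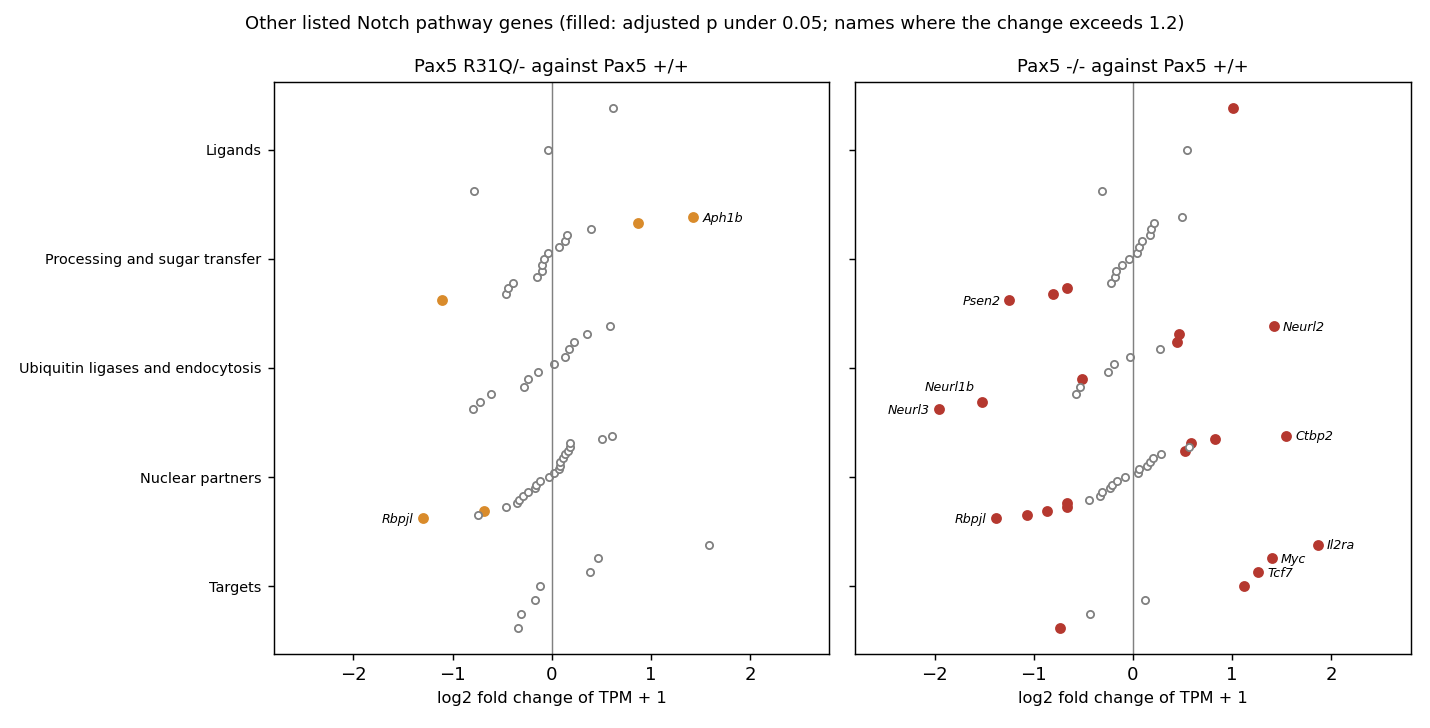
Log2 fold change of TPM + 1 (horizontal axes) of the 60 other tested genes of the Notch pathway, grouped by role (vertical axis), in Pax5R31Q/- (left) and Pax5-/- cells (right) against Pax5+/+; each point is 1 gene, and filled points have an adjusted p under 0.05. Of the 60 genes, 5 are filled on the left and 24 on the right, with Neurl3 lowest at -1.96 and Il2ra highest at 1.87.

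Over the 10 genes, 26 wild-type peaks lay in the gene or within 10 kb of it, and 18 of these were common, whereas 15727 of all 41983 wild-type peaks were (37.5%). Unique wild-type peaks were often repeat-masked sequence, with a median of 100% of the peak masked over the whole list and 17.1% at the Notch pathway genes. Among peaks that were at most 50% masked, 18 of 25 at the 10 genes (72.0%) and 15319 of 22751 in all (67.3%) were common. The share at the 10 genes thus lay near that of all peaks once repeats were set aside. The Pax5R31Q/- list held 23 peaks at these genes, and 4 of them, at Notch3, Nrarp and Ptcra, met no wild-type peak, beside 18.4% of all 18821 Pax5R31Q/- peaks. At least 1 such peak in the gene or within 10 kb was seen at 21.8% of tested genes. Of the 18 common pairs, 16 were wider in the Pax5R31Q/- list, with a median ratio of 1.217, and over all 15680 pairs with a single partner 81.2% were wider, with a median of 1.226.

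**Figure D4:**
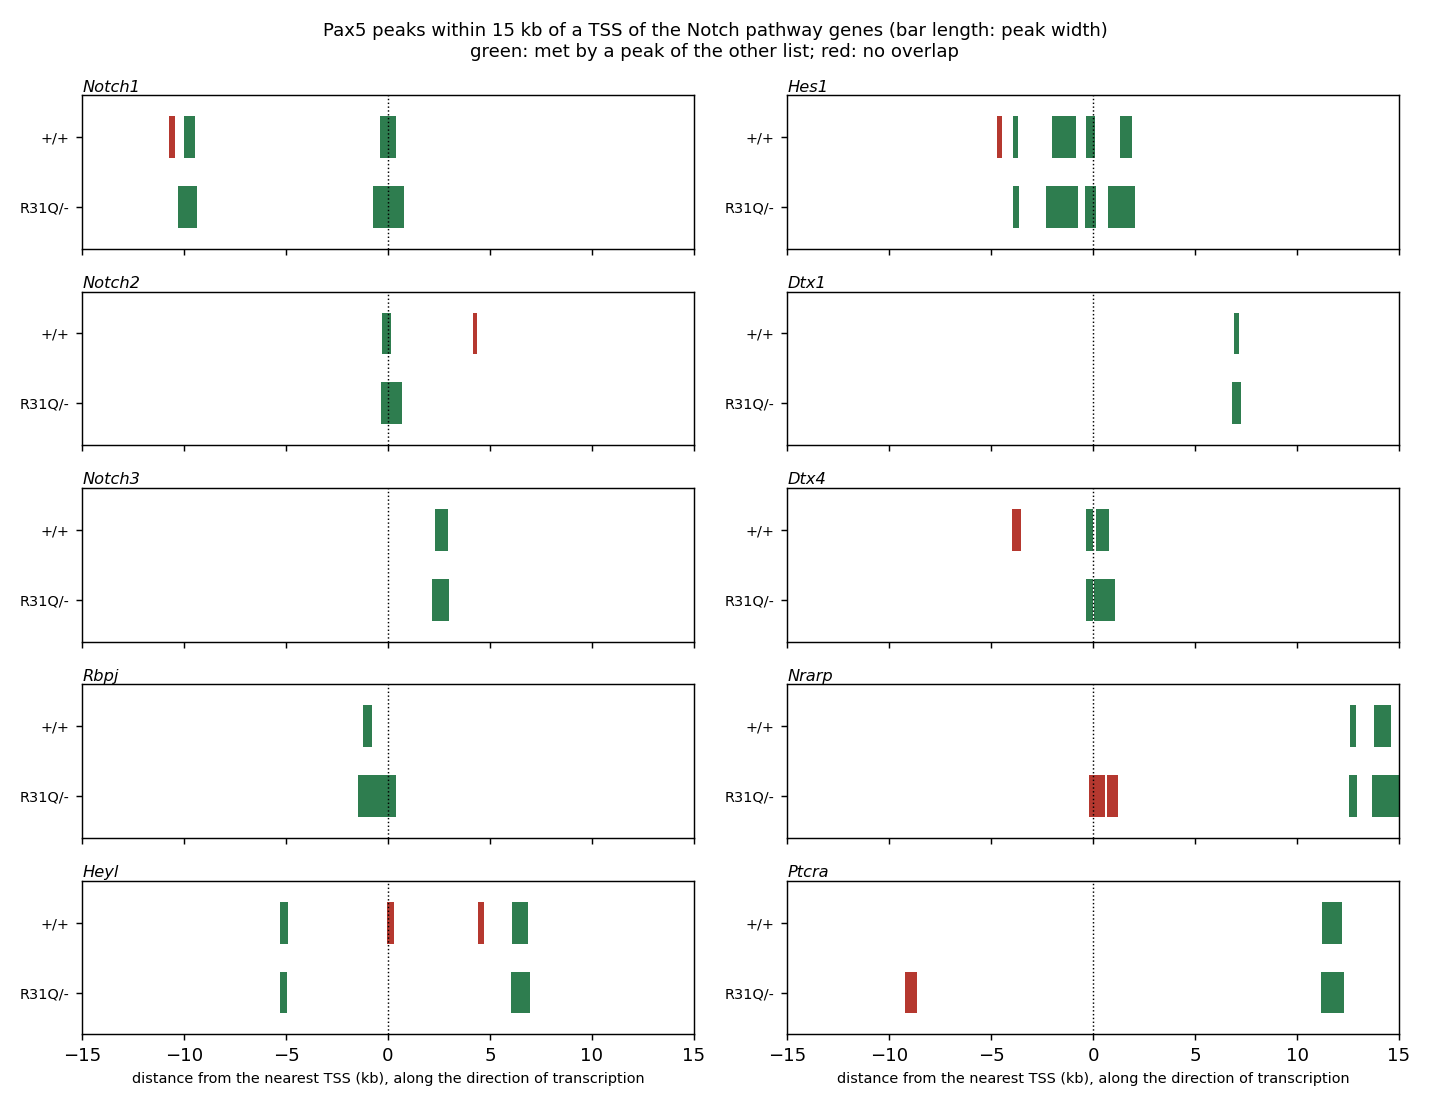
Pax5 peaks of the wild-type and the Pax5R31Q/- list (rows) at the 10 Notch pathway genes, by distance from the nearest transcription start site (horizontal axis, kb, along the direction of transcription). The row +/+ is the wild-type list, from the cells labelled Rag2(-/-) and not from the Pax5+/+ cells of the RNA-seq. Bar length is peak width, green bars meet a peak of the other list and red bars do not. The start-site peak of Heyl appears in the wild-type row alone and the 2 start-site peaks of Nrarp in the Pax5R31Q/- row alone.

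Heyl, which fell, lost its start-site peak from the list, and Dtx4, which rose, kept both of its own. Notch1, Notch2 and Hes1, which did not pass the test in Pax5R31Q/- cells, also had common start-site peaks. A wild-type peak within 1 kb of a start site was found at 65.8% of tested genes, and one in the gene or within 10 kb at 86.4%, beside 9 of the 10 genes here.

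GTGGGAA, searched on both strands, was found in 8 of the 26 wild-type peaks (30.8%), in 1 peak each of Notch1, Notch3, Rbpj, Heyl, Hes1, Dtx1, Dtx4 and Ptcra, against 4.99% of all wild-type peaks, 9.96% of common and 2.01% of unique ones. The peaks of the list and of the whole set differ in width, with a median of 439 bp for common peaks at the 10 genes and 468 bp for all common peaks. GCGTGAC, searched likewise, was found in 1 of the 26 peaks (3.85%) and in 4.83% of all wild-type peaks, in 1573 of 15727 common ones and in 1.73% of unique ones. The letters of the 2 motifs were searched separately. The RefSeq promoter table held 7 of the 10 genes, with Heyl, Hes1 and Dtx4 missing. Of these, none held GTGGGAA, found in 6.38% of all promoter windows of 300 bases, and that of Notch3 held GCGTGAC (2.09%). These matches are a description of the letters in the windows and not of binding.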

How the data were processed

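RNA-seq was analyzed in 8 libraries, 2 for each of 4 Pax5 genotypes, and ChIP-seq in 2. Per the labels and the methods, the authors removed ribosomal reads, aligned to GRCm38/mm10 with STAR 2.4.2, used featureCounts for uniquely mapped reads on RefSeq and deposited TPM, reads divided by gene length and by the library's total. The peak files hold starts, ends and a score of 0 throughout, as deposited by the authors, who aligned with Bowtie2 2.3.5.1, downsampled with Picard 2.18.27 where needed and called peaks with MACS per library against an input.

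limma 3.58.1 in R 4.3.3 was fitted on log2(TPM + 1) of all 8 libraries, with genotype as the only term and eBayes with a trend, for the 13436 genes of at least 1 TPM in at least 1 library. Benjamini-Hochberg adjustment ran over all of them. The authors removed immunoglobulin genes from their calls, which was not done here. Whole reads within 0.001 came back from the TPM steps for all 17371 genes found in 3 or more libraries, and for 924 of them after values were moved by up to 0.1%. limma-voom on those reads was an alternative. Peaks, letters and plots were handled in Python 3.11.15 with pysam 0.24.0 and matplotlib 3.10.9 on GRCm38.p6, on which 12893 of the tested genes had coordinates. The 10 genes are named in every comparison, and other pathway genes where they passed the call rule or, after their values were seen, where a count was 5 or fewer. The genes and lists were chosen with earlier results of these data known. A marker of the pro-B list is not reported here.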

Additional observations from a re-analysis of the deposited data

How the results depend on the processing

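Of 310 alternative values, 107 counts stayed within 1.5 times of their reported value, 163 log2 fold changes kept their direction and their side of the threshold, 16 counts moved further, 24 log2 fold changes no longer passed, and none of these reversed. They cover the 17 of 45 pairs of gene and comparison that passed. Of the 28 pairs that did not, 10 changed sign under some alternative, all with a reported log2 fold change of at most 0.089 in size. Among them, in Pax5R31Q/- against Pax5+/+ cells, Hes1 was at -0.21 in place of 0.04 without the first Pax5+/+ library, and Dtx1 at -0.20 in place of 0.02 without the first Pax5R31Q/- library. In Pax5-/- against Pax5+/+ cells, the count of lower genes was 2 (Heyl and Dtx1) in place of 3 with only the compared genotypes fitted, after median-ratio scaling and in a limma-voom fit of the reads. The count of higher genes there was 5, with Notch3, in place of 4 under the latter pair and 3 with only the compared genotypes fitted, and the call rule took 5 genes, with Dtx1, in place of 4 with a mean above 1 TPM. In Pax5+/- against Pax5+/+ cells, the count of higher genes was 1 (Dtx4) in place of 0 with eBayes without a trend and in a limma-voom fit of the reads. In Pax5R31Q/- against Pax5+/- cells, the count of lower genes was 0 in place of 1 with a pseudocount of 0.1, with no filter on low values and with only the compared genotypes fitted, and the count of higher genes was 0 with no filter. With a fold above 2, the call rule took 2 genes there in place of 1. Leaving out 1 library at a time gave 0 to 0 lower and 0 to 0 higher genes in that comparison, 2 to 3 lower and 3 to 4 higher in Pax5-/- against Pax5+/+ (the lower genes being Heyl, Dtx1 and Hes1 without the first Pax5+/+ library), 3 to 4 lower and 2 to 2 higher in Pax5R31Q/- against Pax5-/-, 1 to 1 each in Pax5R31Q/- against Pax5+/+, and 0 to 0 in Pax5+/- against Pax5+/+ cells. With only the compared genotypes fitted, Rbpj (limma adjusted p = 0.189) and Nrarp (0.168) in Pax5-/- against Pax5+/+, and Notch3 (0.0696) in Pax5R31Q/- against Pax5-/- cells, no longer passed. That fit has fewer libraries, and the other causes were not tested. Heyl and Dtx4 in Pax5R31Q/- against Pax5+/+ passed in every alternative, with limma adjusted p up to 0.0452 and 0.0256. Within 50 kb, 35 of 50 wild-type peaks were common (70.0%).

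No paired analysis was possible because the labels give the libraries no replicate numbers. Precision is set by 2 libraries per genotype and by 1 ChIP library each, and genes near 0 TPM cannot be ranked at this depth.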
